A study of Mus musculus with 4 samples.

Results

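Bacteria that are classed with the cell-wall-free lineages of the gut were followed in the stool of mice given antibiotics. The set holds every genus of the family Anaeroplasmataceae, of the family UBA660 or of the order RF39 in the authors' composition table. It was defined by these names, and it was chosen with earlier results of these data known. It came to 17 of the 316 genera, or 24 of the 488 rows of the table, and 16 of the 17 genera had a read in at least 1 library. Anaeroplasmataceae, here placed in the order Acholeplasmatales, was represented by a single genus, Pelethenecus. The other 16 genera belonged to UBA660, which was the only family of RF39 in the table. Nothing in these data measures a cell wall, so the label rests on the taxonomic names alone.

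Most bacteria build a mesh of peptidoglycan around the cell, and β-lactams and glycopeptides stop its synthesis. Ampicillin, a β-lactam, blocks the enzymes that cross-link the mesh, and vancomycin, a glycopeptide, binds its building blocks. Metronidazole damages the DNA of anaerobes, and neomycin, an aminoglycoside, disturbs protein synthesis on the ribosome. Acholeplasmas and their relatives descend from walled Firmicutes and live without a peptidoglycan wall, while RF39 is known mostly from genomes assembled from gut communities.

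The mice were wild-type C57BL/6J aged 8 to 12 weeks. Each received 2.5 mg of ampicillin, metronidazole, neomycin or vancomycin, or of a mix of all 4, in 100 µl of phosphate-buffered saline (PBS), and the controls received PBS alone. The routes were oral gavage, intraperitoneal injection and intravenous injection, with 2 doses a day on 3 days and a last one on day 4. Stool of day 0 and day 4 was profiled by sequencing V4 of the 16S rRNA gene, a marker that names bacteria. At day 4, 89 samples entered the comparisons. The PBS controls were 5 oral samples, 5 intraperitoneal and 6 intravenous. In the same order there were 5, 2 and 4 samples of ampicillin, 6, 5 and 6 of vancomycin, 6, 6 and 6 of metronidazole, 4, 6 and 4 of neomycin, and 4, 3 and 6 of the mix. Replicate numbers in the sample names were taken as different mice. Cages are not given, so p-values measure the spread between these samples alone.

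Values are percent of the reads of a library. They are shares, so fewer bacteria of all other kinds and more of the named genus cannot be told apart. Day 4 libraries held from 30 to 153407 reads with a median of 23566, and 4 held fewer than 1000. In 2 groups a pair of libraries did not differ beyond sampling noise (chi-square test of their reads) and was counted as 1 sample. These were intraperitoneal vancomycin replicates 1 and 5 and intravenous ampicillin replicates 3 and 4. A second sequencing run, SB1, held 12 of the day 4 libraries, and the other run, ok122, held the rest. Burkholderia, an environmental and opportunistic genus, took up to 96.6% of the reads in oral ampicillin samples and up to 96.0% in those of the oral mix. Outside oral and intraperitoneal ampicillin and the oral and intravenous mix it stayed at or under 0.0933% in each of 72 samples.

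Before treatment Pelethenecus was the most widespread of the 17 genera. It was found in 69 of 107 day 0 libraries, at a mean of 0.104% ± 0.161 (SD, n = 107). Detection followed depth, with 65 of 83 libraries of at least 1000 reads and 4 of 24 shallower ones. UBA660 as a family was found in 49 of 107 day 0 libraries, at a mean of 0.0429% ± 0.0769 (SD, n = 107). At day 4 only Pelethenecus, UBA6985 and the reads of UBA660 with no genus name (unclassified UBA660) were present in at least 20% of samples and could be tested. The remaining 14 genera were under that share, and they are described by the samples in which they had reads.

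Pelethenecus rose with ampicillin given by mouth or into the peritoneum. With vancomycin, the other drug that acts on the wall, it did not pass the test by any route. With oral PBS it made up 0.459%, 0, 0.0224%, 0.136% and 0.0572% of reads. With oral ampicillin the shares were 3.50%, 4.84%, 1.33%, 4.66% and 0.0171%. The first 4 ampicillin samples lay above all PBS samples, and replicate 5 lay among them. The mean was 2.87% ± 2.12 (SD, n = 5) against 0.135% ± 0.188 (SD, n = 5). On the scale of log2(percent + 0.01) the difference was 4.18 (SE 1.07, limma adjusted p = 0.000891). In the same comparison 6.32% of the 95 genera tested were called higher and 49.5% lower, and the median change over all genera was −1.86. The exact two-sided permutation test of these 10 samples gave p = 0.0476, or 0.0838 after adjustment over the 95 genera. With each mouse set against its own day 0 the difference in Pelethenecus was 2.96 (limma adjusted p = 0.114), where day 0 libraries of this group held as few as 324 reads.

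Replicate 5, the low sample, had 96.6% of its reads in Burkholderia, and replicate 3 had 89.0%. The other 3 samples had at most 0.323%. Taken over the reads that were not Burkholderia, Pelethenecus came to 0.498% in replicate 5 and 12.1% in replicate 3. With Burkholderia and unassigned taxa left out of all libraries, the oral ampicillin difference was 5.66 (limma adjusted p = 5.98e-05). Replicates 4 and 5 came from run SB1 while all oral PBS samples came from run ok122. Within run ok122 the Pelethenecus difference was 5.38 (limma adjusted p = 0.000276).

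**Figure D1:**
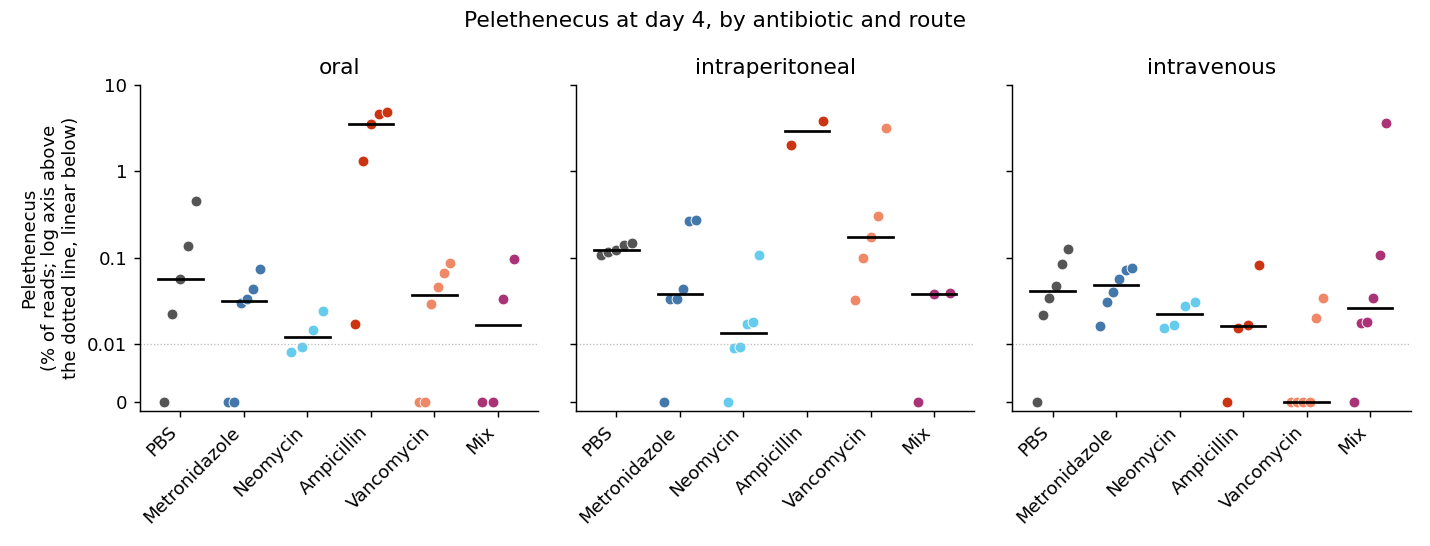
Pelethenecus as percent of reads in each day 4 sample, by antibiotic and route, on an axis that is logarithmic above 0.01% and linear below. Points are samples and bars are group medians. Of 89 samples, 8 lie above 1%, and 6 of these are oral or intraperitoneal ampicillin.

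Into the peritoneum the same drug gave the same picture from fewer mice. The 5 PBS samples held 0.124%, 0.116%, 0.109%, 0.148% and 0.142% Pelethenecus, a narrow range. The 2 ampicillin samples held 3.83% and 2.00%, both above every PBS sample. Replicate 1 came from run ok122, as did all 5 PBS samples, and replicate 2 came from run SB1. Burkholderia took 8.49% of the reads of replicate 1 and 0.0656% of replicate 2. The difference was 4.34 (SE 1.41, limma adjusted p = 0.0130), with 7.37% of genera called higher. No permutation of 2 against 5 samples can go below p = 0.0476, which was the value reached, or 0.119 adjusted. The call rests on both ampicillin samples, since the limma adjusted p was 0.110 without replicate 1 and 0.0601 without replicate 2. It also ended at a pseudocount of 0.001 (limma adjusted p = 0.0868) and with centred log-ratios (limma adjusted p = 0.0549).

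By vein the level did not pass the test in either direction. Pelethenecus was at 0.0475%, 0.0347%, 0.127%, 0.0221%, 0.0859% and 0 in the PBS samples. In the 4 ampicillin samples it was at 0.0831%, 0, 0.0156% and 0.0168%. The groups overlapped, with a difference of −0.73 (SE 1.09, limma adjusted p = 0.575). The change with ampicillin differed between the oral and the intravenous route by 4.91 (SE 1.53, limma adjusted p = 0.0292), where 4.21% of genera were called higher. That call was lost without any 1 of 9 samples, with adjusted p between 0.0520 and 0.0944. These were oral ampicillin replicates 1, 2 and 4, intravenous ampicillin replicate 2 and the pair 3 and 4, intravenous PBS replicates 3 and 5, and oral PBS replicates 2 and 3. Of the other settings it was lost in 6, among them centred log-ratios (4.85, limma adjusted p = 0.167) and each mouse against its own day 0 (3.37, limma adjusted p = 0.484). Between the intraperitoneal and the intravenous route the change differed by 5.08 (limma adjusted p = 0.0803).

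With vancomycin the range of Pelethenecus overlapped that of PBS by each route. By mouth the samples held 0.0456%, 0, 0.0293%, 0, 0.0881% and 0.0672%, all within the range of oral PBS. The difference was −0.99 (SE 1.02, limma adjusted p = 0.367). Into the peritoneum the pair 1 and 5 held 0.0997%, and replicates 2, 3, 4 and 6 held 0.172%, 3.18%, 0.309% and 0.0327%. Replicates 2, 3 and 4 lay above every PBS sample of that route, and the pair and replicate 6 lay below every one. The difference by this route was 0.83 (SE 1.07, limma adjusted p = 0.594). By vein only 2 of 6 samples had Pelethenecus reads, at 0.01996% and 0.0346%, with a difference of −1.61 (SE 0.976, limma adjusted p = 0.177).

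Set against each other, the wall-acting drugs differed in their effect on Pelethenecus by mouth. Vancomycin lay below ampicillin, with a log2 difference of −5.17 (SE 1.02, limma adjusted p = 4.78e-05), where 5.26% of genera were called lower. Into the peritoneum the difference was −3.51 (SE 1.41, limma adjusted p = 0.0650), and by vein −0.88 (SE 1.09, limma adjusted p = 1).

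Metronidazole, neomycin and the mix changed Pelethenecus in none of 9 comparisons by limma at the adjusted threshold. Before adjustment 1 of them passed 0.05, neomycin into the peritoneum. There 5 of 6 samples held 0.00942% to 0.107%, below the lowest PBS sample of that route. Replicate 4 had 70 reads, and its 0 allows a share of up to 4.29%. The difference was −2.37 (SE 1.02, limma adjusted p = 0.639), and 0% of genera were called lower by limma there, with 4 lower at an unadjusted p under 0.05. With metronidazole the mean was 0.0303% ± 0.0284 (SD, n = 6) by mouth, 0.108% ± 0.126 (SD, n = 6) into the peritoneum and 0.0490% ± 0.0238 (SD, n = 6) by vein. With the oral mix the shares were 0.0333%, 0, 0.0974% and 0 in replicates 1, 2, 2b and 3, and replicate 2 held only 556 reads. Burkholderia took 91.9% of the reads of replicate 1 and 96.0% of replicate 2b, and over the other reads Pelethenecus came to 0.409% and 2.42% there. Into the peritoneum 2 mix samples held 0.0381% and 0.0389%, and the third had 30 reads, too few to give a level. Among the intravenous mix samples replicate 2 was highest at 3.65%, and the other 5 ran from 0, in a sample of 65 reads, to 0.108%.

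**Figure D2:**
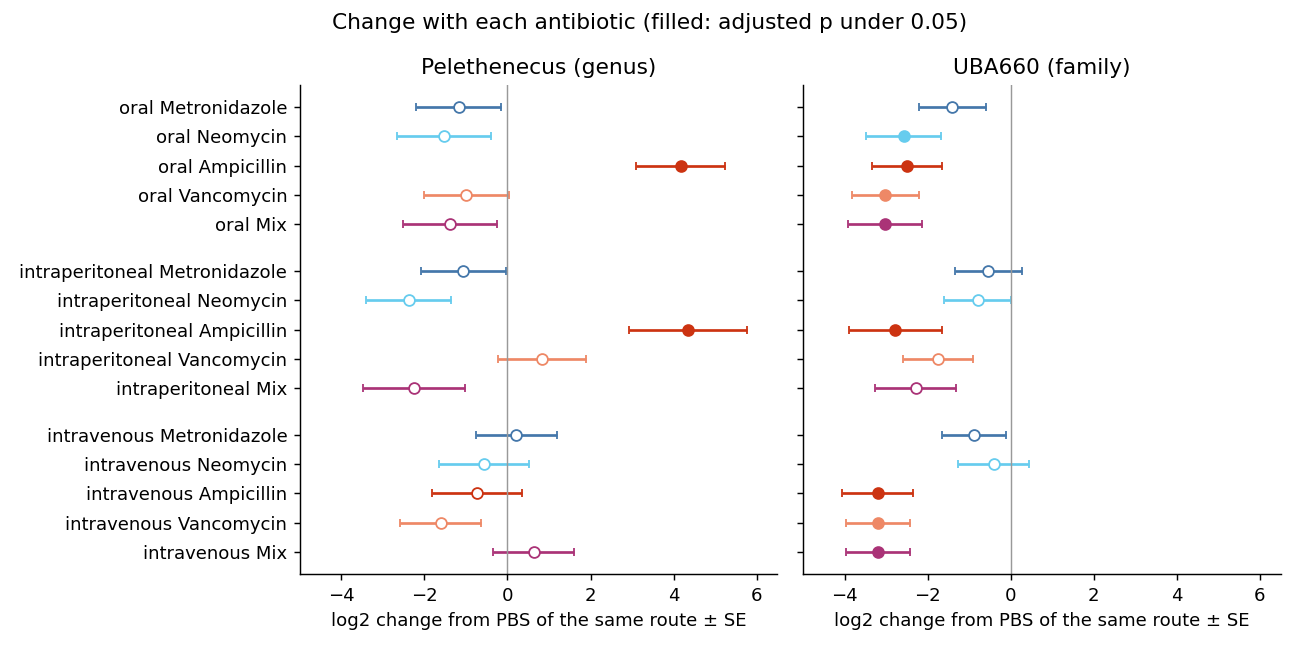
Change from PBS of the same route for Pelethenecus (left) and for the UBA660 family (right), as log2(percent + 0.01) with standard errors from limma. Filled points have an adjusted p under 0.05. Only oral and intraperitoneal ampicillin are filled to the right, at 4.18 and 4.34 for Pelethenecus, while 8 of 15 points of UBA660 are filled and lie to the left.

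The mice carried low levels of Pelethenecus before ampicillin. In oral ampicillin mice the day 0 shares were 0.411%, 0.165%, 0, 0.0996% and 0. Replicates 1, 2 and 4, with day 0 libraries of over 1000 reads, were all higher at day 4. Replicate 3 had 455 reads at day 0, where a 0 allows up to 0.659%, and was above that at day 4. Replicate 5 had 324 reads at day 0, which allows up to 0.926%, so no direction can be read from it. Of the intraperitoneal ampicillin mice, 1 rose from 0.0663%, and the other had 971 reads at day 0, where a 0 allows up to 0.309%, and 2.00% at day 4. With PBS, among mice with at least 1000 reads on both days, 2 of 3 oral, 4 of 5 intraperitoneal and 3 of 5 intravenous ones were higher at day 4, so a rise in itself was common. The size was not, since the highest PBS share at day 4 was 0.459%.

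**Figure D3:**
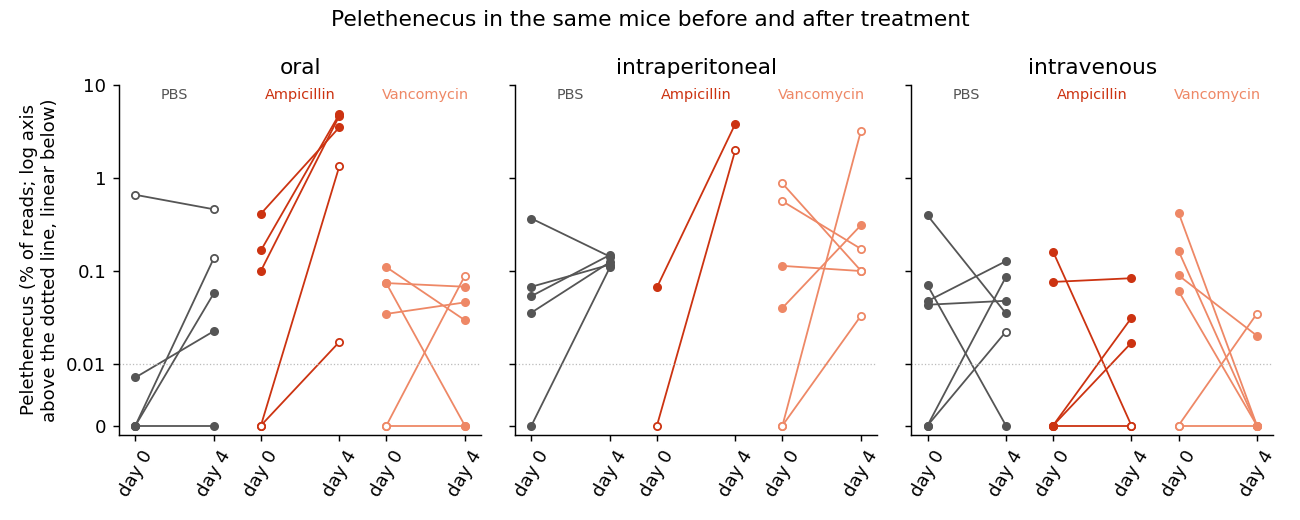
Pelethenecus as percent of reads at day 0 and day 4 in the same mice given PBS, ampicillin or vancomycin, by route. Each line is a mouse, and open points mark mice whose day 0 library held fewer than 1000 reads. Of the 7 oral and intraperitoneal ampicillin lines, 6 end above 1%.

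UBA660 went the other way and was lower than PBS with both wall-acting drugs. Day 0 limits what this says of a fall within mice, counted here with at least 1000 reads on both days. With ampicillin 1 of 3 oral, 1 of 1 intraperitoneal and 1 of 4 intravenous mice were lower at day 4, and 1 oral mouse was higher. With vancomycin 3 of 4, 0 of 2 and 3 of 5 were lower, and 2 intraperitoneal mice were higher. With PBS 3 of 3, 2 of 5 and 4 of 5 were higher, and 3 intraperitoneal mice were lower. Over all 16 genera the family had reads in 15 of 16 PBS samples at day 4, in 21 of 32 samples of metronidazole or neomycin, in 4 of 28 samples of ampicillin or vancomycin and in 1 of 13 of the mix. This came to 694 of 529957 reads with PBS, 638 of 998424 with metronidazole or neomycin, 37 of 706750 with the wall-acting drugs and 6 of 480670 with the mix. Against PBS of the same route, UBA660 was lower in 8 of 15 comparisons and higher in 0 by limma over 38 families. In each of those 8 comparisons between 10.5% and 47.4% of families were called lower. At an unadjusted p under 0.05 UBA660 was lower in 10 and higher in 0. A log2 change from PBS to a group listed at 0 is set by the pseudocount, and no fold is drawn from it.

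By mouth the PBS samples held 0.0864%, 0.0496%, 0.0962%, 0.154% and 0.0260% UBA660. All 6 vancomycin samples were at 0, which per library allows a share of up to between 0.0147% and 0.261%. In 183 of 198 libraries the smallest value was 2 reads, so single reads may not have been kept and these limits may be too low. Of the 5 ampicillin samples 4 were at 0 and replicate 1 held 0.0512%, so only that sample overlapped PBS. All 4 samples of the mix were at 0, 1 of them with 556 reads. The differences were −3.03 with vancomycin (SE 0.807, limma adjusted p = 0.000729), −2.50 with ampicillin (SE 0.843, limma adjusted p = 0.00984) and −3.03 with the mix (SE 0.894, limma adjusted p = 0.00517). Families called lower were 47.4%, 44.7% and 28.9% of those tested in the same order. For the mix, the split of family calls was 11 lower and 2 higher, and 6 lower and 3 higher with Burkholderia and unassigned taxa left out. Within run ok122 the oral ampicillin value for UBA660 was −2.16 (limma adjusted p = 0.0511). In the exact permutation test over samples the adjusted p was 0.00484 for vancomycin, 0.0754 for ampicillin and 0.0274 for the mix.

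With oral neomycin, which does not act on the wall, UBA660 was also lower than PBS. From day 0 to day 4, 1 of 4 neomycin mice was lower, 1 was higher and 2 were at 0 on both days. Of the oral PBS mice 5 of 5 were higher. Day 0 libraries held as few as 662 and 318 reads. At day 4 of neomycin the family was at 0 in 3 of 4 samples and at 0.0245% in replicate 4, below every oral PBS sample. The difference was −2.58 (SE 0.894, limma adjusted p = 0.0315), and 10.5% of families were called lower. It missed the threshold without neomycin replicate 1, 2 or 3 or without PBS replicate 1, 3 or 4, with adjusted p between 0.0508 and 0.0819, and in the exact permutation test (adjusted p = 0.0754). Oral metronidazole left UBA660 in 4 of 6 samples, up to 0.0995%, with a difference of −1.41 (SE 0.807, limma adjusted p = 0.789).

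By vein UBA660 was missing from all samples of the wall-acting drugs and of the mix, and present with metronidazole and neomycin. The PBS samples held 0.184%, 0.686%, 0.395%, 0.0387%, 0.0130% and 0. All 4 ampicillin, all 6 vancomycin and all 6 mix samples were at 0. Per library of ampicillin or vancomycin this allows a share of up to between 0.00196% and 0.0829%, and 1 mix sample had only 65 reads. The difference was −3.20 for each of the 3, with limma adjusted p of 0.00169, 0.000579 and 0.000965, and 31.6%, 26.3% and 28.9% of families were called lower. Metronidazole samples held 0.0692%, 0.0741%, 0.0209%, 0, 0.129% and 0.0442%, and neomycin samples 0.0381%, 0, 0.1004% and 0.424%. Both overlapped PBS, with differences of −0.88 (SE 0.769, limma adjusted p = 0.799) and −0.41 (SE 0.860, limma adjusted p = 0.895).

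The sequencing run moved with the intravenous PBS level of UBA660. The 3 PBS samples of run ok122 held 0.184%, 0.686% and 0.395%, and the 3 of run SB1 held 0.0387%, 0.0130% and 0. The 3 vancomycin samples of each run were all at 0. Within run ok122 the 3 differences in UBA660 were each −5.25, with limma adjusted p of 2.25e-05 for ampicillin, 0.000180 for vancomycin and 8.79e-06 for the mix. In the exact permutation test over samples, the adjusted p values for ampicillin, vancomycin and the mix by vein were 0.145, 0.0523 and 0.0576.

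**Figure D4:**
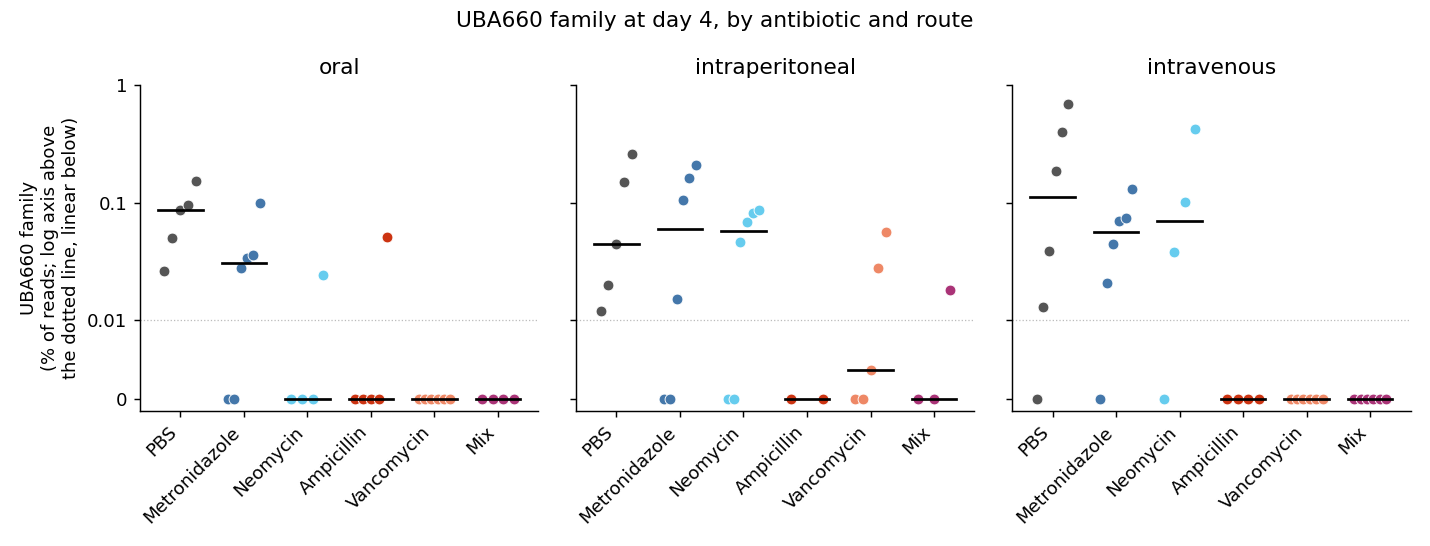
The UBA660 family as percent of reads in each day 4 sample, by antibiotic and route, on an axis that is logarithmic above 0.01% and linear below. Points are samples and bars are group medians. Every oral and intravenous vancomycin sample lies at 0, and 4 of the 28 samples of ampicillin or vancomycin hold any reads.

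Into the peritoneum UBA660 was more variable. PBS samples held 0.0446%, 0.149%, 0.0121%, 0.257% and 0.0199%, and both ampicillin samples were at 0, a difference of −2.78 (SE 1.11, limma adjusted p = 0.0370), where 23.7% of families were called lower. With centred log-ratios the split of family calls there turned from 9 lower and 7 higher to 15 lower and 5 higher. The ampicillin call was lost without ampicillin replicate 1 or 2 or PBS replicate 2 or 4, with adjusted p from 0.0770 to 0.157, and within run ok122 (limma adjusted p = 0.138). In all, the ampicillin call was lost in 8 of 14 settings, among them the exact permutation test (adjusted p = 0.213). Vancomycin samples held 0.00372%, 0.0278%, 0, 0.0565% and 0, with a difference of −1.76 (SE 0.843, limma adjusted p = 0.117).

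UBA6985 made up 55.6% of the UBA660 reads of the PBS samples, and unclassified UBA660 made up 25.8%. UBA6985 was called lower than PBS in 7 of 15 comparisons and higher in 0 by limma, with 10 lower and 0 higher at an unadjusted p under 0.05. Over all genera 24.9% of 1425 tests in the 15 comparisons were lower. None of 5 oral, 2 intraperitoneal and 5 intravenous ampicillin mice had UBA6985 reads on either day, with as few as 324 reads at day 0. By vein the PBS samples held 0.0670%, 0.669%, 0.258%, 0.0387%, 0.0130% and 0 UBA6985. All ampicillin, vancomycin and mix samples by vein were at 0, and the difference for each was −2.88, with limma adjusted p of 0.000295, 5.65e-05 and 0.000132. Genera called lower were 36.8%, 37.9% and 37.9% of those tested. The calls with ampicillin and vancomycin did not pass the exact permutation test (adjusted p = 0.0952 and 0.0533).

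UBA6985 was also lower than PBS with the drugs that do not act on the wall when these were given by vein. From day 0 to day 4, 2 of 6 metronidazole mice were lower, 1 was higher and 3 were at 0 on both days. Of 4 neomycin mice 1 was lower and 3 were at 0 on both days, while 5 of 6 PBS mice were higher. Day 0 libraries held as few as 351, 549 and 529 reads in the same order. At day 4 metronidazole samples were at 0 in 4 of 6 cases and otherwise at 0.0260% and 0.0141%, a difference of −2.36 (SE 0.585, limma adjusted p = 0.0114). Neomycin samples were at 0 in 3 of 4 cases and at 0.00555% in the other, a difference of −2.72 (SE 0.654, limma adjusted p = 0.00724). In these comparisons 2.11% and 1.05% of genera were called lower, so with neomycin UBA6985 was the 1 genus called. Both UBA6985 calls rest on PBS replicate 2, the highest sample, without which the adjusted p was 0.129 and 0.0979. The metronidazole call was lost in 6 of 14 settings and the neomycin call in 3 of 14. Each was lost in the exact permutation test, with adjusted p of 0.685 and 0.641. With centred log-ratios 0 genera were called by limma for metronidazole by vein.

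By mouth UBA6985 had reads in 3 of 5 PBS samples, at 0.0331%, 0.0201% and 0.105%, and in no sample of ampicillin, vancomycin, neomycin or the mix. The difference was −1.45 for each of these drugs. It passed for ampicillin (SE 0.640, limma adjusted p = 0.0476) and vancomycin (SE 0.613, limma adjusted p = 0.0322), where 49.5% and 58.9% of genera were called lower. The ampicillin call of UBA6985 was lost without any 1 of 8 samples, that is, each of its 10 samples but PBS replicates 1 and 5 (adjusted p up to 0.248), and the vancomycin call without PBS replicate 2, 3 or 4 (adjusted p up to 0.205). The ampicillin call was also lost in 10 of 14 settings, among them run ok122 alone (adjusted p = 0.0777), centred log-ratios (0.135) and the exact permutation test (0.220). The vancomycin call was lost in 5 of 14, among them centred log-ratios (0.183) and the exact permutation test (0.0768).

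Unclassified UBA660 had reads in 9 of 16 PBS samples, 17 of 32 samples of metronidazole or neomycin, 1 of 28 of the wall-acting drugs and 1 of 13 of the mix. By mouth the PBS samples held 0.0399%, 0, 0.0582%, 0.0140% and 0.0104%, and all ampicillin and vancomycin samples were at 0. The difference for both was −1.48, with limma adjusted p of 0.0273 for ampicillin and 0.0196 for vancomycin, where 49.5% and 58.9% of genera were called lower. Both unclassified UBA660 calls were lost without PBS replicate 1 or 3, with limma adjusted p from 0.0589 to 0.103. The ampicillin call was also lost in 6 of 14 settings, among them run ok122 alone (limma adjusted p = 0.0789) and the exact permutation test (adjusted p = 0.0838). The vancomycin call was lost in 3 of 14 (limma adjusted p up to 0.0809).

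The contrast of the wall-acting drugs with metronidazole and neomycin, averaged over the 3 routes, went in opposite directions for the 2 lineages. Pelethenecus was higher with ampicillin and vancomycin than with metronidazole and neomycin by 2.09 (SE 0.459, limma adjusted p = 3.62e-05). In that contrast 9.47% of genera were called higher and 69.5% lower, with a median over all genera of −1.42. By route it was 2.95 by mouth (SE 0.748, limma adjusted p = 0.000514) and 4.31 into the peritoneum (SE 0.859, limma adjusted p = 3.28e-05), with 6.32% of genera called higher in each. By vein it was −0.998 (SE 0.772, limma adjusted p = 0.249). PBS is not part of this contrast. Over all routes the median share was 0.0401% with the wall-acting drugs, 0.0290% with the others and 0.0973% with PBS. The means were 0.871%, 0.0448% and 0.102%. From PBS, metronidazole and neomycin differed by −1.17 and −1.54 by mouth, −1.07 and −2.37 into the peritoneum and 0.21 and −0.56 by vein. The drugs of the contrast differed in value. Ampicillin alone against metronidazole and neomycin gave 3.68 (SE 0.628, limma adjusted p = 3.92e-07, with 8.42% of genera higher), and vancomycin alone gave 0.49 (SE 0.512, limma adjusted p = 0.377). The split by drug was chosen after the values of Pelethenecus were seen.

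The UBA660 family was lower with the wall-acting drugs by 1.64 (difference −1.64, SE 0.361, limma adjusted p = 4.75e-05), where 47.4% of families were called lower and the median over families was −0.64. A lower level was thus the common outcome for families, and the share called does not set UBA660 apart. By route the difference was −0.77 by mouth (SE 0.590, limma adjusted p = 0.263), −1.60 into the peritoneum (SE 0.677, limma adjusted p = 0.0388) and −2.56 by vein (SE 0.608, limma adjusted p = 0.000194). In the last 2 contrasts 34.2% and 39.5% of families were called lower. The intraperitoneal call was lost without any 1 of 12 samples (adjusted p up to 0.122). Those samples were ampicillin replicates 1 and 2, metronidazole replicates 1, 2 and 4, neomycin replicates 1, 3, 5 and 6, and vancomycin replicates 3, 6 and the pair 1 and 5. It was also lost in 9 of 14 settings. Among them were centred log-ratios (limma adjusted p = 0.0723), the permutation test (adjusted p = 0.116) and run ok122 alone, with 1 ampicillin sample by this route. With libraries thinned to 1000 reads the intravenous value was −1.58 (limma adjusted p = 0.0750). Ampicillin alone gave −1.73 for UBA660 (SE 0.495, limma adjusted p = 0.00142) and vancomycin alone −1.56 (SE 0.403, limma adjusted p = 0.000492), against 55.3% and 52.6% of families called lower.

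Within the family, unclassified UBA660 was lower with the wall-acting drugs by 1.03 (difference −1.03, SE 0.254, limma adjusted p = 0.000197). In that contrast 69.5% of genera were called lower and the median over all genera was −1.42, so the call does not set unclassified UBA660 apart. With each library thinned to 1000 reads the value of unclassified UBA660 was −0.56 (limma adjusted p = 0.0745). UBA6985 differed by −0.41 (SE 0.275, limma adjusted p = 0.157), and its sign turned with centred log-ratios (0.12, limma adjusted p = 0.815).

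The other 14 genera, all of UBA660, were rare, and 1 of them, Scybalousia, had no read in any library. CAG-628 had reads in 6 of 16 PBS samples, 9 of 32 of metronidazole or neomycin and 1 of 28 of the wall-acting drugs. UBA3789 had reads in 3, 10 and 1 samples of the same groups, CAG-605 in 4, 7 and 0, RUG12438 in 2, 5 and 1, and RUG13038 in 3, 2 and 0. CAG-710, Coprosoma and Faecimonas were found in PBS samples alone at day 4, in 2, 1 and 1 of them. UBA2730 and UMGS872 each had reads in 1 PBS sample and 1 sample of metronidazole or neomycin. Faecisoma had reads in 2 samples and UMGS1449 in 1 sample of metronidazole or neomycin. Onthocola_B had reads in 1 sample of those drugs and 1 of the wall-acting ones. None of these 14 had a read in a mix sample. With no filter on rare genera, 8 of 195 tests of the 13 with reads passed, 7 lower and 1 higher, with log2 changes between −0.28 and 0.22. All came from Coprosoma, UBA2730, Faecimonas and UMGS1449. Each had reads in 1 sample of the group that set its call, with 2, 3, 4 and 3 reads in that order. Over all genera 11.4% of 4185 tests passed in that fit.

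**Figure D5:**
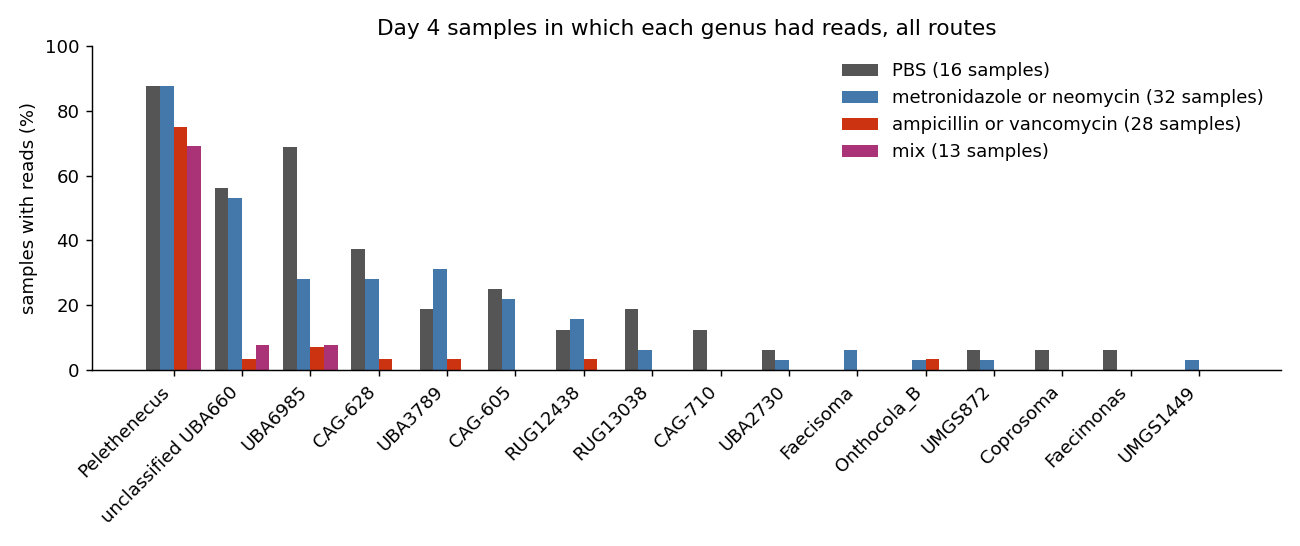
Share of day 4 samples in which each genus with reads was found, over all routes, for PBS (16 samples), metronidazole or neomycin (32), ampicillin or vancomycin (28) and the mix (13). Pelethenecus was found in 21 of the 28 samples of the wall-acting drugs, and each UBA660 genus in at most 2 of them.

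The groups also differed in how many of the 16 UBA660 genera had reads in some sample, though the number of samples differed too. It was 12 in the 16 PBS samples, 12 in the 32 of metronidazole or neomycin, 6 in the 28 of the wall-acting drugs and 2 in the 13 of the mix. A sample of oral PBS held between 2 and 6 of them, with a median of 3. With neomycin by vein the median was 3.5, and with vancomycin by mouth or by vein no genus was found.

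Across the 18 groups of day 4, the mean levels of UBA6985 and unclassified UBA660 ran together (Spearman's rho 0.79), while Pelethenecus ran with neither (0.22 with UBA6985 and 0.04 with unclassified UBA660). The genera most like Pelethenecus were unclassified Clostridia_258483 (rho 0.60), unclassified CAG-552 (0.57) and unclassified Christensenellales (0.54). Those most like UBA6985 were Eubacterium_S (0.91), Schaedlerella and 14-2 (both 0.88), all of the Lachnospiraceae. Those most like unclassified UBA660 were Evtepia (0.94), Limivicinus (0.93) and UMGS1994 (0.91). The groups share libraries and shares of a library sum to a fixed total, so these values describe the groups and carry no test.

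The table also holds 31 further genera of the class Bacilli. Only 4 of them could be tested, and these were walled genera of the order Lactobacillales. With oral ampicillin 0 of the 4 passed in either direction (0 by limma also before adjustment), with a median of −0.90 against −1.86 over all genera. Ligilactobacillus, a genus of lactic acid bacteria, was the only one of them called with ampicillin or vancomycin alone. It rose from 0.0446% ± 0.0255 (SD, n = 5) with oral PBS to 5.61% ± 2.70 (SD, n = 6) with oral vancomycin, a difference of 6.65 (SE 1.001, limma adjusted p = 8.81e-08), where 7.37% of genera were called higher. With oral ampicillin Ligilactobacillus was at 0.0127% ± 0.0246 (SD, n = 5), a difference of −1.64 (SE 1.05, limma adjusted p = 0.172). By vein Ligilactobacillus was listed at 0 in PBS, at 0.886% ± 1.19 (SD, n = 4) with ampicillin (limma adjusted p = 0.000386) and at 0.0421% ± 0.0602 (SD, n = 6) with vancomycin (limma adjusted p = 0.202). Into the peritoneum it was higher with vancomycin by 2.81 (limma adjusted p = 0.0387). The order of the 2 drugs for Ligilactobacillus thus differed by route, and oral Pelethenecus was high with ampicillin and within the range of PBS with vancomycin.

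Of the Clostridia, 55 genera were tested with oral ampicillin, 29 fell and 3 rose, with a median of −1.90. Of the Bacteroidia, 13 of 17 fell and 0 rose (also 0 by limma before adjustment), with a median of −4.40. The 3 tested genera of the set gave 2 lower and 1 higher in the comparison of oral ampicillin with PBS. Over all 15 comparisons they gave 9 lower and 2 higher calls in 45 tests, while over all genera 24.9% of 1425 tests were lower and 3.37% higher.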

How the data were processed

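The authors deposited 1 composition table, a signal scaled to 100000 per fecal library over taxa named at 7 ranks, and sheets that give antibiotic, route, day and replicate. How reads were processed and named is not given in the sources used here. Genera and families were summed and turned to percent. Within a library 100% of nonzero values were whole multiples of 1 step, which gives the depth; no count model was fitted. A 0 allows up to 3 reads; such limits cover counting error only. Limma 3.58.1 (R 4.3.3) was fitted to log2(percent + 0.01) of 89 day 4 samples, 1 mean per group with a variance trend, over 95 genera or 38 families present in at least 20% of samples, with Benjamini-Hochberg adjustment and a threshold of 0.05. The log scale understates changes of rare taxa. Permutation tests (numpy 2.4.6, scipy 1.17.1, Python 3.11.15) were exact for 2 groups. The fits were tested on simulated data. All tested and untested members are named. For each tested one the 3 genera of highest rho are named, and of walled Bacilli up to 3 called with ampicillin or vancomycin. Members and lists were chosen with earlier results of these data known.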

Additional observations from a re-analysis of the deposited data

Results flagged for a closer look

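In groups of 4 to 10 samples, the highest or lowest sample was compared with the spread of its group (Dixon's ratio). The ratio was taken on log2(percent + 0.01), while the values below are percents. Of 46 groups tested for Pelethenecus, UBA6985, unclassified UBA660 and the UBA660 family, 7 had a sample that stood apart. In 6 of them all other samples were at 0, where any read sets the ratio to its highest value, so the usual chance rate of about 1 in 20 groups does not apply to them. In oral ampicillin the lowest Pelethenecus sample held 0.0171% of reads against 1.33% to 4.84% in the others. For the UBA660 family the highest oral ampicillin sample held 0.0512% and the highest oral neomycin sample 0.0245%, with all others of the group at 0. UBA6985 reached 0.00181% in 1 intraperitoneal and 0.00555% in 1 intravenous neomycin sample, with the others at 0. Unclassified UBA660 reached 0.0122% in 1 oral neomycin and 0.0202% in 1 intraperitoneal vancomycin sample, with the others at 0. Such single samples above a group at 0 rest on few reads. The change of Pelethenecus with ampicillin differed between the oral and the intravenous route by 4.91 on the log2 scale.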

How the results depend on the processing

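The contrast of wall-acting with other antibiotics, averaged over routes, kept its direction and its side of the threshold for Pelethenecus (1.48 to 2.35) and the UBA660 family (−3.25 to −0.48) under every setting run. The value for unclassified UBA660 was −0.56 and missed the threshold with libraries thinned to 1000 reads; the construction leaves out shallower libraries and most reads. UBA6985 turned to 0.12 with centred log-ratios (0.26 by mouth and 0.13 by vein), and by vein to 0.13 against the mouse's own day 0; the cause was not tested. Leaving out single samples gave 1.93 to 2.32 for Pelethenecus, −1.80 to −1.50 for the UBA660 family, −0.47 to −0.32 for UBA6985 and −1.12 to −0.91 for unclassified UBA660. Centred log-ratios moved the median of all genera in this contrast from −1.42 to −1.59. Of calls against PBS, the 2 higher ones became 1 with centred log-ratios, with own baselines and at a pseudocount of 0.001, and 0 by permutation test. The 9 lower ones became 5 with centred log-ratios, with no filter and with only the groups compared, 4 with own baselines, 2 by permutation test and 0 at presence in 50% of samples, where only Pelethenecus is tested. Settings for the family, for vancomycin against ampicillin and for differences between routes were chosen after seeing the data. Replicate numbers did not pair the samples (mean correlation of deviations 0.0162 in 652 pairs of one number, −0.00376 in 3076 others). With the replicate block the contrast was 2.06 for Pelethenecus, −1.66 for the UBA660 family, −0.42 for UBA6985 and −1.03 for unclassified UBA660, and the counts stayed at 2 and 9. Depth limits what a 0 means: 4 day 4 and 24 day 0 libraries held under 1000 reads.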
